A study of Homo sapiens with 18 samples.

Results

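Interferon regulatory factors (IRFs) and signal transducers and activators of transcription (STATs) are transcription factors through which cells start and answer interferon and cytokine signals. The 9 genes described here, *IRF1*, *IRF2*, *IRF3*, *IRF5*, *IRF7*, *IRF9*, *STAT2*, *STAT3* and *STAT6*, were taken by name from the 57500 genes of the count table. All 9 had at least 1 count somewhere. Of these, 8 passed the filter on low counts that left 16994 genes for testing, and *IRF5* did not.

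The 18 libraries are RNA-seq of polyA RNA from IMR90 human fibroblasts, with 3 libraries in each of 6 groups. The groups are proliferating cells (Prol), cells made senescent by irradiation (Sen (IR)), and irradiated cells treated with CCCP and given nothing further (Sen (IR) + CCCP), acetate, mtDNA, or acetate and mtDNA together (the combination). CCCP is a mitochondrial uncoupler, and by the study's methods it clears mitochondria because the treated cells express Parkin, a ligase that marks damaged mitochondria for removal. The labels do not say whether the groups without CCCP carry Parkin too. The mtDNA was introduced with a transfection reagent, and since no group is labelled as given the reagent alone, effects of the reagent and of mtDNA cannot be told apart. By the study's methods acetate was given every other day, whereas mtDNA was transfected late, days after irradiation. Acetate and mtDNA thus differ in length of exposure too, and treatment and exposure cannot be told apart. The labels do not say whether libraries of a group came from separate cultures, and the study describes its replicates in culture as independent experiments.

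In this pathway, sensors of nucleic acid lead to phosphorylation of IRF3, which is made at a steady level in most cells, and of IRF7, which is scarce until interferon raises it. Both then switch on type I interferon genes. Secreted interferon acts through JAK kinases to form ISGF3, in which IRF9 binds DNA and STAT2 is one of the STAT partners, and ISGF3 turns on antiviral genes, *IRF7* among them. IRF1 is an inducible activator of antigen presentation and guanylate-binding protein genes, and IRF2 binds the same sites, often as its antagonist. STAT3 carries signals of the interleukin-6 family, STAT6 those of interleukin-4 and interleukin-13, and IRF5 is best known from macrophages and B cells.

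The sites that STAT dimers bind, called GAS, have the core TTCNNNGAA, which reads the same on both strands. Among the members with an entry in the RefSeq promoter table (GRCh38.p14; *IRF1*, *IRF5*, *IRF9*, *STAT2*, *STAT3* and *STAT6*), this core occurred near the starts of *IRF1* and *IRF9* and of no other, and those sequences are shown because both genes' levels moved in the comparisons described here. Positions count back from the transcription start, the base before it being -1, and capitals mark the GAS core. In *IRF1* the core lies at -124 to -116 and in *IRF9* at -63 to -55. The *IRF1* stretch is chr5:132490778-132491023 on the minus strand, and the *IRF9* stretch is chr14:24161192-24161221 on the plus strand. The *IRF1* stretch is not exonic in the gene annotation. All 250 bases before the *IRF9* start are annotated as exonic, so only 30 bases around its core are shown.
IRF1 promoter: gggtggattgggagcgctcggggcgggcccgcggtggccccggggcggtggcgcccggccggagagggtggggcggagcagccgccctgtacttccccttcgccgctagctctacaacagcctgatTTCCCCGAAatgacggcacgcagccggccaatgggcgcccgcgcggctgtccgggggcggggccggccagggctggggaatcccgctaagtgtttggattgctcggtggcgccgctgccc
IRF9 promoter: accacgtgatTTCTGGGAAaaggccctccc
Of 35116 promoter windows of 300 bases in the table, 7.66% hold TTCNNNGAA. The core of the interferon-stimulated response element, GAAA followed by GAAA after any 2 bases, occurred in 3.57% of all windows and the form preferred by STAT6, TTC and GAA with 4 bases between them, in 6.44%, and neither was found in a window of a member on either strand. GGG and CC with 5 bases between them, a loose form of the NF-kB site whose matches can overlap each other, occurred in 58.7% of all windows and in windows of all 6 members with an entry, and in *IRF1* and *IRF9* no match overlapped the GAS core. TATAAA occurred in 11.5% of windows and in 1 of the 4 windows of *IRF5*. A match is a description of letters and not a site shown to be bound.

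The genes lie apart, on chromosomes 4 (*IRF2*), 5 (*IRF1*), 7 (*IRF5*), 11 (*IRF7*), 12 (*STAT2* and *STAT6*), 14 (*IRF9*), 17 (*STAT3*) and 19 (*IRF3*). Some share exonic sequence with a neighbour in the GENCODE annotation, and the study's methods say that strand was used in counting where libraries kept it, without saying whether these did. *IRF1* shares 22.9% of its exonic bases with an antisense RNA on the opposite strand, named C5orf56 in the files, whose counts summed to 7.56% of those of *IRF1*. *IRF9* shares 23.9% of its exonic bases with a read-through transcript on its own strand, AL136295.5, whose counts summed to 45.1% of those of *IRF9*. *IRF3* shares 19.3% with *BCL2L12* on the opposite strand. The counts of *IRF9* in particular are uncertain to this extent, whereas *IRF2*, *IRF7*, *STAT2* and *STAT3* shared no exonic base with a neighbour.

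The libraries held 24624886 to 46224280 counts on genes, with a median of 29620505.5. The 13 protein-coding mtDNA genes took a mean of 2.62% of counts in Prol, 2.11% in Sen (IR), 0.122% in Sen (IR) + CCCP, 0.132% with acetate, 0.0505% with mtDNA and 0.121% in the combination. Of the fibroblast markers, 10 of 10 had counts, and their summed TPM (a level per gene length, scaled to a common total in each library) was 16292 to 18439 in Prol, 10313 to 12369 in Sen (IR), 5632 to 5821 in Sen (IR) + CCCP and 3869 to 4334 in the combination. Leukocyte markers summed to at most 5.61 TPM and epithelial markers to at most 5.03 TPM in any library. The 5 endothelial markers were not near 0, at 175 to 310 TPM. In 2 groups 1 library stood apart: replicate 3 of Sen (IR) and replicate 2 of the combination, whose pairs with their fellows had a chi-square per degree of freedom of 22.2 to 28.3, against 2.78 to 7.75 in the other pairs of replicates. Replicate 2 of the combination also had 0.237% of counts on mtDNA genes against 0.0640% and 0.0624% in its fellows. Counts and values without them are given beside the comparisons where they differ.

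On the scale used here between groups, the members that form ISGF3 or depend on it had the widest range relative to their levels. Over group means in TPM, *IRF1* (3.09-fold) ranged more widely than *STAT2* (2.70-fold). Levels between groups are in CPM (counts relative to the library's TMM-scaled total), listed in the order of replicates 1, 2 and 3. *IRF7* stood at 2.07, 1.81 and 1.82 CPM in Prol and at 2.49, 1.77 and 1.62 CPM in Sen (IR). It was at 0.641, 0.631 and 0.907 CPM in Sen (IR) + CCCP and at 0.795, 0.793 and 0.672 CPM with acetate. With mtDNA *IRF7* reached 18.8, 14.8 and 12.1 CPM, and in the combination 5.83, 15.2 and 6.30 CPM. The mtDNA and combination libraries were all above every other library, and the combination overlapped mtDNA alone only through its replicate 2. The 73 counts of *IRF7* summed over the 3 Sen (IR) + CCCP libraries and the 91 with acetate are few, so its low levels there carry wide counting error.

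*IRF9*, the DNA-binding subunit of ISGF3, had 3.64, 3.81 and 3.27 CPM in Prol and 4.25, 4.14 and 3.995 CPM in Sen (IR). Its level was 1.42, 1.72 and 1.63 CPM in Sen (IR) + CCCP and 1.11, 1.04 and 1.43 CPM with acetate. With mtDNA it was 4.99, 4.53 and 4.39 CPM, and in the combination 2.23, 4.14 and 2.63 CPM. The lowest libraries were thus those with CCCP and no mtDNA, and the mtDNA libraries sat just above those of Sen (IR). *STAT2*, its partner, was at 184, 193 and 185 CPM in Prol and 173, 165 and 167 CPM in Sen (IR). It was at 101, 88.4 and 96.9 CPM in Sen (IR) + CCCP and at 99.995, 113 and 106 CPM with acetate. Levels of *STAT2* were 304, 228 and 281 CPM with mtDNA and 151, 309 and 172 CPM in the combination, where replicate 2 exceeded every mtDNA library and the other two lay below them all.

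*IRF1* was at 52.9, 53.6 and 49.2 CPM in Prol, 72.4, 74.0 and 59.2 CPM in Sen (IR), and 45.5, 46.3 and 53.1 CPM in Sen (IR) + CCCP. It rose to 101, 91.2 and 96.3 CPM with acetate, 95.5, 77.6 and 84.1 CPM with mtDNA, and 113, 152 and 108 CPM in the combination. Every library given acetate, mtDNA or both was above every library of the other groups. *IRF2*, which competes with IRF1 for sites, was at 22.9, 23.1 and 22.8 CPM in Prol, 22.3, 22.4 and 19.7 CPM in Sen (IR), and 19.9, 21.9 and 21.3 CPM in Sen (IR) + CCCP. It was at 25.7, 24.0 and 23.7 CPM with acetate, 42.1, 33.3 and 38.4 CPM with mtDNA, and 31.8, 39.5 and 29.6 CPM in the combination. The libraries with mtDNA, alone or with acetate, were all above the rest.

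In CPM and relative to its level, *IRF3* kept the narrowest range of the members tested, from 26.8 CPM in a Prol library to 37.3 CPM in a Sen (IR) + CCCP library. Group means in TPM spanned 1.72-fold for *IRF3* and less, 1.28-fold, for *STAT3*. Its means were 28.5 ± 2.14 CPM (SD, n = 3) in Prol, 30.3 ± 3.29 in Sen (IR), 34.6 ± 2.51 in Sen (IR) + CCCP, 34.9 ± 0.421 with acetate, 30.5 ± 1.27 with mtDNA and 28.3 ± 0.827 in the combination. *STAT3* ranged from 163 CPM in an acetate library to 236 CPM in a Sen (IR) library, with means of 207 ± 10.8 CPM in Prol, 227 ± 11.6 in Sen (IR), 181 ± 5.68 in Sen (IR) + CCCP, 169.5 ± 6.69 with acetate, 197 ± 7.25 with mtDNA and 194 ± 12.4 in the combination. *STAT6* was highest in Sen (IR), at 143, 139 and 142 CPM, and lower in Prol, at 118, 123 and 118.5 CPM. It was at 95.1, 90.3 and 101 CPM in Sen (IR) + CCCP and 103, 90.5 and 96.1 CPM with mtDNA, against 81.2, 79.6 and 76.7 CPM with acetate and 72.6, 86.3 and 72.9 CPM in the combination. Both groups given acetate lay below both groups with CCCP that were not, without overlap.

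*IRF5*, a factor of macrophages and B cells, was hardly detected. Its 13 counts came from 6 libraries, with at most 4 in one, and 12 libraries were at 0. A count of 0 allows up to 3 counts, or 0.0630 to 0.123 CPM at these depths, and the highest level was 0.145 CPM. No fold change is given for it, and these intervals and floors cover counting error only.

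**Figure D1:**
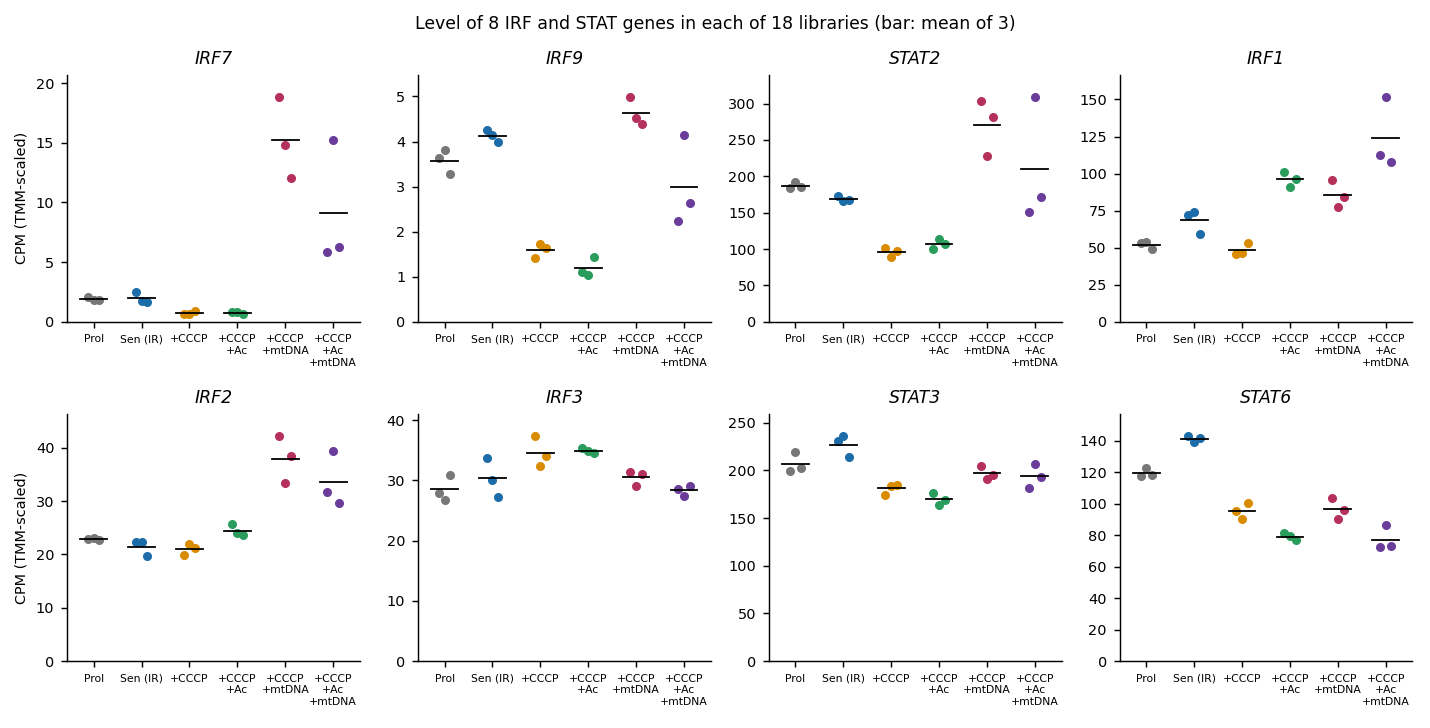
Level of 8 members, in CPM after TMM scaling on linear axes that start at 0, in each of the 18 libraries, with a bar at the mean of each group of 3. *IRF7*, *IRF9* and *STAT2* were lowest in Sen (IR) + CCCP with or without acetate and high with mtDNA, *IRF1* was high with acetate, mtDNA or both, and in the combination replicate 2 stood above its fellows for *IRF7*, *IRF9*, *STAT2*, *IRF1* and *IRF2*.

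Compared within a library per length of gene (TPM), *STAT2* was the most abundant member in Prol (mean 115.5 TPM), Sen (IR) (109.95 TPM), mtDNA (226 TPM) and the combination (168 TPM), and within each of those groups every library had more of it than any had of *STAT3*. In Sen (IR) + CCCP and with acetate the order turned, with *STAT3* first at 110.0 and 96.2 TPM and *STAT2* second. *IRF7* was below *IRF9* in every Prol, Sen (IR) and Sen (IR) + CCCP library, overlapped it with acetate, and was above it with mtDNA (29.5 against 6.22 TPM) and in the combination (16.9 against 3.85 TPM). *IRF1* came 6th in Prol and in Sen (IR) + CCCP, where it overlapped *IRF2*, and 3rd with acetate and in the combination.

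Ratios within a library do not depend on how libraries are scaled to each other. The ratio of *IRF1* to *IRF2*, an activator and its antagonist, was 0.904 ± 0.0364 (SD, n = 3) in Prol, 1.27 ± 0.0635 in Sen (IR) and 0.919 ± 0.0756 in Sen (IR) + CCCP. It was 1.57 ± 0.0540 with acetate and 1.47 ± 0.0589 in the combination, against 0.904 ± 0.0271 with mtDNA. The acetate libraries (1.57, 1.52 and 1.62) and the combination libraries (1.42, 1.54 and 1.46) lay above those of every other group, whereas with mtDNA (0.906, 0.930 and 0.876) they overlapped Sen (IR) + CCCP. The ratio of *IRF7* to *IRF3* was 0.0305 ± 0.00714 in Sen (IR) + CCCP, 0.0311 ± 0.00263 with acetate, 0.722 ± 0.154 with mtDNA and 0.470 ± 0.288 in the combination, where the libraries gave 0.295, 0.803 and 0.313. The ratio of *STAT2* to *STAT3* went from 1.30 ± 0.0335 in Prol to 0.761 ± 0.0704 in Sen (IR) + CCCP and 1.98 ± 0.223 with mtDNA. With 3 libraries against 3, an exact permutation test of a ratio cannot go below p = 0.1, so these are given without a test.

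**Figure D2:**
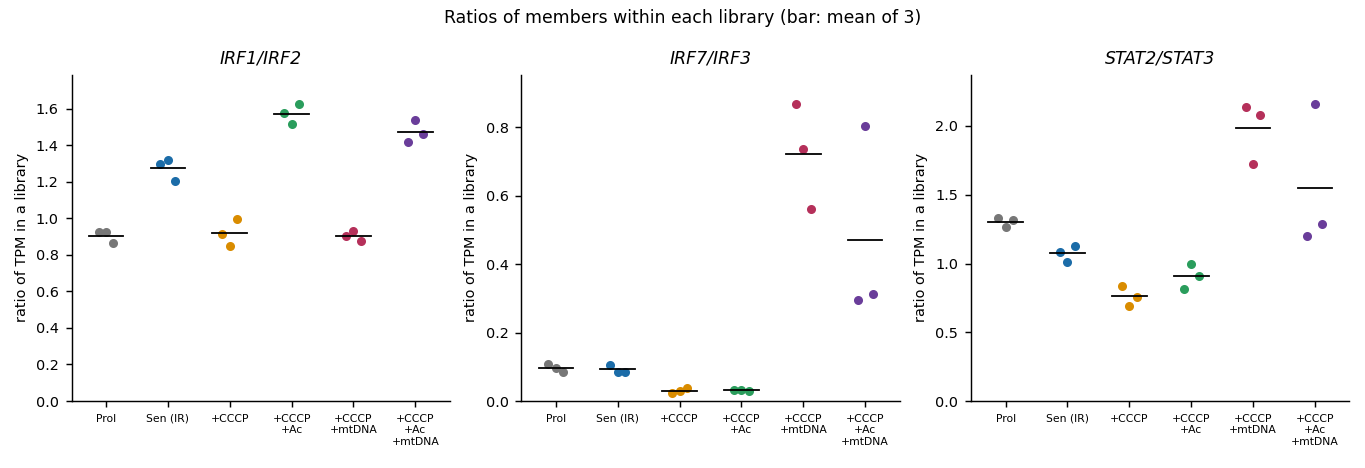
Ratio of the TPM of 2 members in each library, on linear axes from 0, with a bar at the mean of each group of 3. *IRF1* to *IRF2* separated the libraries given acetate (1.42 to 1.62) from those given mtDNA alone (0.876 to 0.930), and *IRF7* to *IRF3* was high in the libraries given mtDNA.

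Few of these genes changed with senescence. In Sen (IR) over Prol, 3 of 8 members were called, all higher, at an adjusted p under 0.05 (edgeR's quasi-likelihood test, Benjamini-Hochberg over all genes), where 56.7% of all genes tested were called, 26.7% higher and 29.9% lower. *IRF1* rose 1.32-fold (log2 fold change 0.40, SE 0.107, adjusted p = 0.00275), *STAT6* rose by 0.24 (SE 0.0604, adjusted p = 0.00180) and *STAT3* by 0.13 (SE 0.0547, adjusted p = 0.0487) on the log2 scale. These are RNA levels of bulk cells, in which fewer expressing cells and less RNA per cell cannot be told apart. *IRF7* (0.08), *IRF9* (0.22) and *STAT2* (-0.15) did not pass the test, although 13 of the 16 genes listed as ISGF3 targets were higher and none lower (median 1.41, against -0.01 over all genes). Among those were *RSAD2* (3.27), *OASL* (2.27), *IFIT1* (1.73) and *IFI6* (1.72), which act against viruses, and without Sen (IR) replicate 3 the count was 8 of 16 (median 1.33). The call for *STAT3* was lost without Prol replicate 1 (0.08, adjusted p = 0.311) or 3 (0.11, adjusted p = 0.164), without Sen (IR) replicate 1 (0.11, adjusted p = 0.143) or 2 (0.08, adjusted p = 0.283), and with no filter on low counts (0.10, adjusted p = 0.240), the setting under which *STAT2* was called lower (-0.18, adjusted p = 0.0109).

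Genes upstream of these factors were called in both directions in Sen (IR) over Prol, where 56.7% of all genes were called, 26.7% higher and 29.9% lower. Of 12 sensors and adaptors 4 were called, a smaller share than over all genes. *TLR3*, an endosomal RNA receptor, was higher (1.04) and *STING1* (-0.48), *TRAF3* (-0.24) and *MAVS* (-0.19) were lower. Of 14 receptor and kinase genes tested, 7 were higher, led by the interleukin-6 receptor *IL6R* (2.35) and the interferon-gamma receptor *IFNGR1* (0.77), and 4 were lower, with the interferon receptor *IFNAR2* (-0.67) first. Of 19 inhibitors of the pathway, 10 were lower, with *SOCS2* (-1.77) and *CISH* (-1.37) first, and 2 were higher, *USP18* (0.88), which blocks the type I interferon receptor, and the phosphatase gene *PTPN1* (0.33). Without Sen (IR) replicate 3, 5 inhibitors were higher and 11 lower, and 2 sensors and 8 receptor and kinase genes were higher. Of the 11 STAT3 targets tested, 6 were lower, with *PIM1* (-1.34) first, and of the 7 STAT6 targets 3 were higher, with *IL13RA2* (4.12), a decoy receptor of interleukin-13, first. Without that library the counts were 5 lower and 2 higher for STAT3 targets and 5 higher for STAT6 targets.

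With CCCP, most members fell. In Sen (IR) + CCCP over Sen (IR), 6 of 8 members were lower and 1 higher, where 65.2% of all genes were called, 34% higher and 31.3% lower. The ISGF3 arm fell furthest. *IRF7* fell by 1.49 on the log2 scale (SE 0.409, adjusted p = 0.00291), *IRF9* by 1.38 (SE 0.182, adjusted p = 7.63e-07) and *STAT2* by 0.82 (SE 0.162, adjusted p = 1.24e-04), and in each case all 3 libraries were below all of Sen (IR). The same held for 32.3% of all genes tested. *STAT6* fell by 0.57 (SE 0.0606, adjusted p = 2.91e-08) and *IRF1* by 0.51 (SE 0.106, adjusted p = 2.51e-04). *STAT3* fell by 0.32 (SE 0.0547, adjusted p = 2.01e-05), a direction that turned to 0.10 on the log2(TPM + 1) scale, on which the median of all genes moved by 0.35 and mitochondrial transcripts took 11.7% of TPM in Sen (IR) and 0.763% in Sen (IR) + CCCP. On that scale *IRF1* (-0.07, adjusted p = 0.563, limma) and *STAT2* (-0.39, adjusted p = 0.0516, limma) lost their calls and the not-called change of *IRF2* turned from -0.03 to 0.39, and centring each library on its median restored these directions and calls.

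*IRF3*, the steady sensor-driven factor, was the member called higher with CCCP (0.18, SE 0.0717, adjusted p = 0.0294), and its libraries overlapped those of Sen (IR). That call did not hold without replicate 2 (0.19, adjusted p = 0.0518) or 3 (0.11, adjusted p = 0.176) of Sen (IR), without replicate 1 of Sen (IR) + CCCP (0.13, adjusted p = 0.168), with DESeq2 (0.17, adjusted p = 0.0651) and with only the groups compared (0.17, adjusted p = 0.0748). Without Sen (IR) replicate 3, 6 members were thus lower and none higher. Against Prol instead of Sen (IR), 5 members were lower and 1 higher, where 69.2% of genes were called, 35.1% higher and 34.1% lower. *IRF7* was lower by 1.41, *IRF9* by 1.16 and *STAT2* by 0.97 on the log2 scale, each without overlap, and *IRF3* was higher (0.27, adjusted p = 0.00206). Of all genes tested, 73.6% had no overlap with Prol, and 36.1% lay wholly below it. *STAT6* (-0.33) and *STAT3* (-0.20) were called lower than in Prol as well, both turning to 0.18 and 0.31 on the uncentred log2(TPM + 1) scale, where the median of all genes moved by 0.42, and *STAT3* lost its call on the centred one (-0.11, adjusted p = 0.0636, limma). *IRF1* and *IRF2* did not pass the test against Prol (-0.10 and -0.13), and both turned to 0.39 and 0.37 on the uncentred scale.

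**Figure D3:**
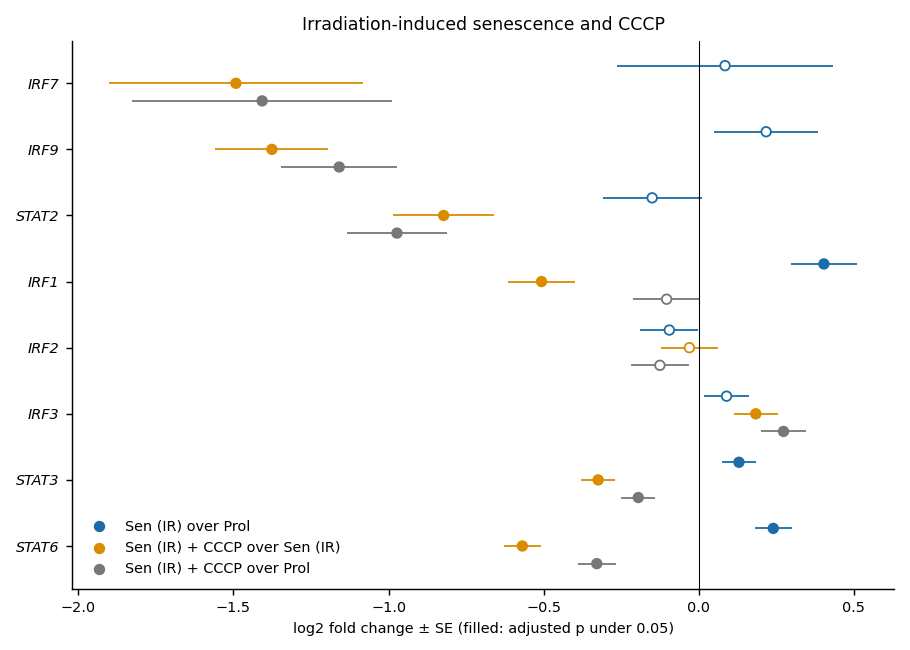
Log2 fold change with its standard error for 8 members in Sen (IR) over Prol, Sen (IR) + CCCP over Sen (IR) and Sen (IR) + CCCP over Prol, with filled points at an adjusted p under 0.05. *IRF7*, *IRF9* and *STAT2* lay between -0.82 and -1.49 in both comparisons of Sen (IR) + CCCP, while *IRF1* rose in Sen (IR) and fell with CCCP.

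With CCCP, 16 of 16 ISGF3 targets were lower than in Sen (IR) (median -3.87, against 0.03 over all genes), with *IFI27* (-6.48), *IFI6* (-6.30), *RSAD2* (-5.35) and *MX1* (-5.20) first, and 15 of 16 without Sen (IR) replicate 3. Over all genes, 31.3% were called lower and 34% higher. Of 16 IRF1 targets 14 were lower, the guanylate-binding protein genes *GBP2* (-4.97) and *GBP1* (-2.98) and the peptide-loading gene *TAPBP* (-1.46) among them, and *GBP4* was at 3 counts or fewer in every Sen (IR) + CCCP library. Of 12 sensors 8 were lower, with the RNA sensor *IFIH1* (-3.36), *TLR3* (-2.67), the kinase gene *IKBKE* (-2.17) and *DHX58* (-1.96) first, and 7 without Sen (IR) replicate 3. The other sensors were higher, namely *CGAS* (0.72), the cytosolic DNA sensor, *MAVS* (0.47), *STING1* (0.35) and *TBK1* (0.22).

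Receptors and kinases were mostly lower with CCCP, 8 of 14 against 2 higher, with *IFNGR2* (-1.40) the largest fall and *JAK2* (0.62) the largest rise. Shares over all genes were 31.3% lower and 34% higher. Inhibitors went the other way for 10 of 19, among them *SOCS2* (1.51), *SOCS4* (1.22) and *SOCS3* (1.06), while *SOCS1* (-3.98) and *USP18* (-1.62), both known to be induced by interferon, led the 5 that were lower. Of 11 STAT3 targets 7 were lower, with *CEBPD* (-1.12) first, and 4 higher, with *SOCS3* first. Of 7 STAT6 targets 3 were lower, *SOCS1*, the matrix protein gene *POSTN* (-3.56) and the transglutaminase gene *TGM2* (-2.36), and 2 were higher.

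Acetate, a source of acetyl-CoA for histone acetylation, raised *IRF1* and left the ISGF3 arm without a call. Over Sen (IR) + CCCP, 2 of 8 members were higher and 1 lower with acetate, where 57.1% of all genes were called, 28.8% higher and 28.3% lower. *IRF1* rose 1.99-fold (log2 fold change 1.00, SE 0.106, adjusted p = 4.53e-08), from a mean of 48.3 ± 4.15 to 96.2 ± 5.0005 CPM (SD, n = 3), with no overlap. *STAT6* fell by 0.27 (SE 0.0609, adjusted p = 6.81e-04), also with no overlap. Libraries of these 2 groups did not overlap for 66% of all genes tested. *IRF2* was called higher (0.22, SE 0.0910, adjusted p = 0.0473), a call that did not hold without acetate replicate 1 (0.21, adjusted p = 0.0949), without replicate 1 (0.20, adjusted p = 0.111) or 3 (0.25, adjusted p = 0.0509) of Sen (IR) + CCCP, with DESeq2 (0.21, adjusted p = 0.0773), with its size factors in edgeR (0.21, adjusted p = 0.0514) and on the log2(TPM + 1) scale (0.12, adjusted p = 0.257, limma), centred as well (0.21, adjusted p = 0.0555).

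The other members did not pass the test with acetate. *IRF7* changed by 0.07 (SE 0.473), *STAT2* by 0.16 (SE 0.162), *IRF9* by -0.41 (SE 0.209, adjusted p = 0.104), *STAT3* by -0.09 (SE 0.0547) and *IRF3* by 0.01 (SE 0.0705), and their libraries overlapped those of Sen (IR) + CCCP. These are changes on the log2 scale. Fitted on these 2 groups alone, where 65% of all genes were called, *STAT2* (0.15, adjusted p = 0.00919) and *STAT3* (-0.11, adjusted p = 0.0142) were called too. *STAT2* was also called with no filter on low counts (0.16, adjusted p = 0.0265), and *STAT3* (-0.19, adjusted p = 0.00398, limma) and *IRF9* (-0.34, adjusted p = 0.0453, limma) on the log2(TPM + 1) scale, on which *IRF7* and *IRF3* turned to -0.02 and -0.08. The antisense neighbour of *IRF1*, C5orf56, rose as well with acetate (1.07, adjusted p = 6.26e-05) and with mtDNA (1.23, adjusted p = 1.06e-04), and its part in the counts of *IRF1* was not tested.

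Downstream, 2 of 16 ISGF3 targets were called with acetate, *IFI6* (1.81) and *XAF1* (1.22), both higher. The shares called among IRF1 and STAT6 targets were also below the 57.1% of all genes. Of 16 IRF1 targets 5 were higher, among them *GBP2* (1.56), *GBP1* (0.98), the cytokine gene *IL15* (0.35) and the peptidase gene *ERAP1* (0.22), and 1 was lower, *PSMB10* (-0.46), an immunoproteasome subunit. Sensors divided, with *IFIH1* (1.61), *TRAF3* (0.98), *IKBKE* (0.97), *TICAM1* (0.64) and *MAVS* (0.15) higher and *TLR3* (-1.60), *STING1* (-1.25), *MYD88* (-0.85) and *CGAS* (-0.40) lower. Of 7 STAT6 targets 3 were higher, *TGM2* (2.09), the interleukin-4 receptor gene *IL4R* (0.68) and *IL13RA2* (0.67), and none lower, while *STAT6* itself was lower. STAT3 targets were split between 6 higher, with *BCL6* (1.08) first, and 5 lower, with *CEBPD* (-1.17) first. Receptors and kinases gave 6 higher, with *IFNAR2* (0.76) and *IL4R* first, and 3 lower, with *IL6R* (-1.35) first, and inhibitors 7 higher and 4 lower, with the phosphatase gene *PTPN2* (-1.12) first.

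mtDNA raised the ISGF3 arm together with *IRF1* and *IRF2*. Over Sen (IR) + CCCP, 5 of 8 members were higher and none lower with mtDNA, where 18.1% of all genes were called, 10.7% higher and 7.4% lower. *IRF7* rose 21.3-fold (log2 fold change 4.41, SE 0.327, adjusted p = 2.65e-09), from 0.727 ± 0.157 to 15.2 ± 3.40 CPM (SD, n = 3). *IRF9* rose 2.91-fold (1.54, SE 0.182, adjusted p = 1.92e-06) and *STAT2* 2.84-fold (1.51, SE 0.163, adjusted p = 5.87e-07). For all of these the mtDNA libraries were above every Sen (IR) + CCCP library, as for 20.1% of all genes tested. The read-through transcript that overlaps *IRF9* did not pass the test (0.55, adjusted p = 0.185).

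*IRF2* and *IRF1* rose as well with mtDNA, *IRF2* 1.81-fold (0.85, SE 0.0906, adjusted p = 4.48e-07) and *IRF1* 1.78-fold (0.83, SE 0.106, adjusted p = 5.97e-06). *IRF3* (-0.18, SE 0.0722, adjusted p = 0.0919), *STAT3* (0.12, SE 0.0548, adjusted p = 0.139) and *STAT6* (0.02, SE 0.0610, adjusted p = 0.872) did not pass. Fitted on these 2 groups alone, *IRF3* (-0.20, adjusted p = 0.0322) and *STAT3* (0.11, adjusted p = 0.0486) did, and *IRF3* passed on the log2(TPM + 1) scale (-0.25, adjusted p = 0.0181, limma), on which *STAT6* turned to -0.05. The 5 calls of the main test held without each library in turn.

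**Figure D4:**
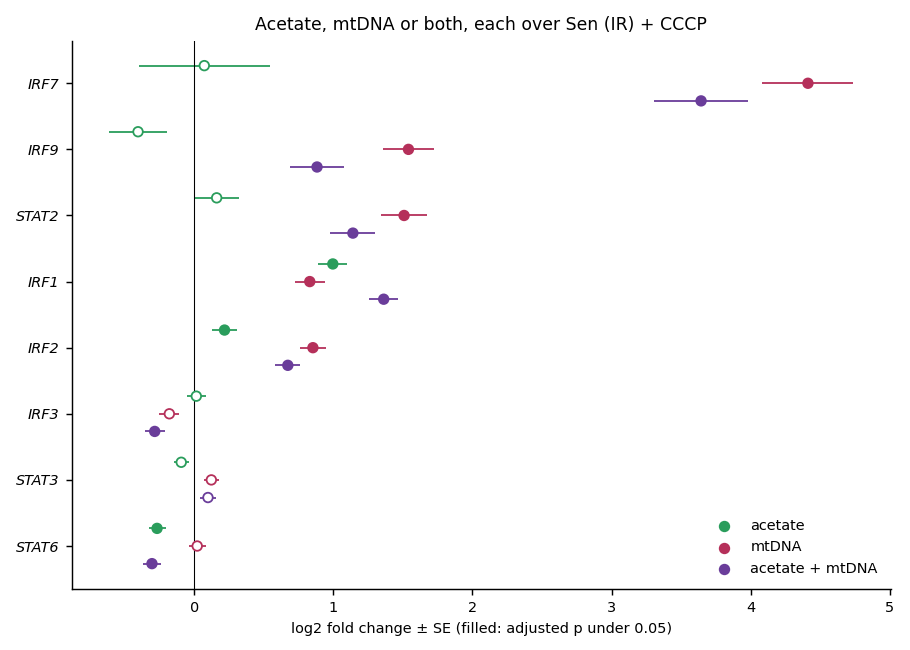
Log2 fold change with its standard error for 8 members with acetate, mtDNA or both, each over the same 3 Sen (IR) + CCCP libraries, with filled points at an adjusted p under 0.05. *IRF7*, *IRF9* and *STAT2* rose with mtDNA (4.41, 1.54 and 1.51) and were not called with acetate, *IRF1* rose with each, and *STAT6* fell where acetate was given.

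With mtDNA, where 10.7% of all genes were called higher and 7.4% lower, the largest changes were among targets of ISGF3. All 16 listed targets were higher (median 5.85, against 0.00 over all genes), with *RSAD2* (10.62), *OASL* (9.10), *MX1* (9.01) and *CMPK2* (8.50) first and *IFI35* (3.96) the least. Of 16 IRF1 targets 13 were higher and none lower, with *GBP4* at least 50.0-fold higher, against a floor of 3 counts in each library, *GBP1* (2.97), the immunoproteasome gene *PSMB9* (2.05) and the class I activator *NLRC5* (1.99). Of 12 sensors 9 were higher and none lower, with *IFIH1* (5.76), *RIGI* (3.50), *TLR3* (3.03) and *DHX58* (2.83) first, whereas the DNA-sensing adaptor *STING1* (0.06) was not called.

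In 4 other lists of the pathway, median log2 fold changes with mtDNA were -0.01 to 0.24, where 10.7% of all genes were called higher. Each list had a larger share called higher than that. Of 19 inhibitors 5 were higher, of which *USP18* (3.65) stood out and the next, *IRF2BPL*, was at 0.43 on the log2 scale. Receptors and kinases gave 4 higher of 14, with *JAK2* (0.51) first. STAT3 targets gave 5 higher of 11, with *JUNB* (0.53) and *MYC* (0.48) first, and STAT6 targets 1 of 7, *TGM2* (0.57). None of these 4 lists had a gene called lower.

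**Figure D5:**
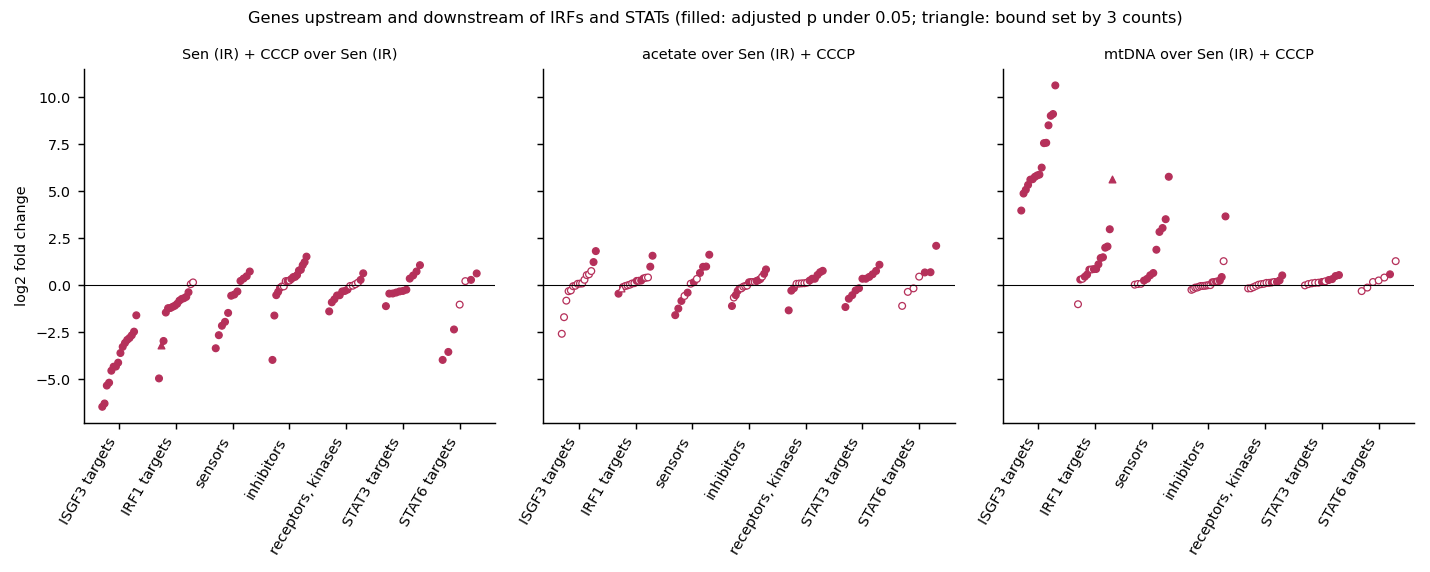
Log2 fold change of each tested gene of 7 lists in Sen (IR) + CCCP over Sen (IR), acetate over Sen (IR) + CCCP and mtDNA over Sen (IR) + CCCP, with filled points at an adjusted p under 0.05 and triangles at a bound set by 3 counts. ISGF3 targets had medians of -3.87 with CCCP, 0.07 with acetate and 5.85 with mtDNA.

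In the combination, *IRF1* reached its highest mean, and the means of the ISGF3 arm lay between those with acetate and with mtDNA alone. Libraries of *STAT2* and *IRF7* overlapped those of mtDNA alone through replicate 2 of the combination (309 and 15.2 CPM). Over the same Sen (IR) + CCCP libraries, 5 members were higher and 2 lower, where 61.7% of genes were called, 30.3% higher and 31.4% lower. *IRF7* was 12.5-fold higher (log2 fold change 3.64, adjusted p = 5.50e-09), *IRF1* 2.57-fold (1.36, adjusted p = 3.06e-10), *STAT2* 2.20-fold (1.14, adjusted p = 2.79e-06), *IRF9* 1.84-fold (0.88, adjusted p = 4.14e-04) and *IRF2* 1.59-fold (0.67, adjusted p = 1.40e-06). Without replicate 2 of the combination the same numbers of members were higher and lower, and the log2 fold changes were 3.10 for *IRF7*, 1.21 for *IRF1*, 0.77 for *STAT2*, 0.61 for *IRF9* and 0.56 for *IRF2*. *STAT6* (-0.31, adjusted p = 1.85e-04) and *IRF3* (-0.29, adjusted p = 0.00172) were lower. *STAT3* did not pass (0.10, adjusted p = 0.129), turned to -0.04 on the uncentred log2(TPM + 1) scale, and was called without replicate 1 of the combination (0.17, adjusted p = 0.0197).

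mtDNA added to acetate raised much the same part of the pathway. In the combination over acetate alone, 6 members were higher and 1 lower, where 12.6% of genes were called, 6.57% higher and 6% lower, and without replicate 2 of the combination 4 were higher and 1 lower. *IRF7* rose 11.9-fold (3.57, SE 0.327, adjusted p = 1.94e-07), *IRF9* 2.44-fold (1.29, SE 0.195, adjusted p = 1.21e-04), *STAT2* 1.97-fold (0.98, SE 0.161, adjusted p = 2.88e-04) and *IRF2* 1.37-fold (0.46, SE 0.0894, adjusted p = 0.00157), while *IRF3* fell by 0.30 (SE 0.0719, adjusted p = 0.00807). Without replicate 2 of the combination the log2 fold changes were 3.01 for *IRF7*, 1.01 for *IRF9*, 0.60 for *STAT2* and 0.33 for *IRF2*, all still called. *IRF1* (0.37, adjusted p = 0.0213) and *STAT3* (0.19, adjusted p = 0.0234) were called higher, but neither call held with only the groups compared (adjusted p = 0.0697 and 0.0572) or on the log2(TPM + 1) scale (adjusted p = 0.0739 and 0.0610, limma). *IRF1* also lost its call without replicate 2 of the combination (0.20, adjusted p = 0.132), acetate replicate 2 (0.33, adjusted p = 0.0918) or acetate replicate 3 (0.37, adjusted p = 0.0642). *STAT3* lost it without the same libraries (0.14, adjusted p = 0.0987, 0.17, adjusted p = 0.106, and 0.19, adjusted p = 0.0728). Of the targets, 16 of 16 ISGF3 genes (median 4.81) and 10 of 16 IRF1 genes (median 0.54) were higher and none lower, and 16 and 9 without replicate 2.

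Acetate added to mtDNA had the opposite sign for *IRF1* and for the ISGF3 arm. In the combination over mtDNA alone, 1 member was higher and 3 lower, where 57.4% of genes were called, 27.4% higher and 29.9% lower. *IRF1* rose by 0.53 (SE 0.104, adjusted p = 1.46e-04), *IRF9* fell by 0.66 (SE 0.171, adjusted p = 0.00231) and *STAT6* fell by 0.33 (SE 0.0617, adjusted p = 1.07e-04), none with overlap. Over all genes tested, 61.2% had no overlap in this comparison. *IRF7* fell by 0.77 (SE 0.237, adjusted p = 0.00834) with overlap, and its call was lost without mtDNA replicate 1 (-0.57, adjusted p = 0.0682), without replicate 1 (-0.50, adjusted p = 0.0779) or 3 (-0.55, adjusted p = 0.0631) of the combination, and with only the groups compared (-0.76, adjusted p = 0.0686). Without replicate 2 of the combination, the library that overlapped mtDNA alone, it was -1.31 (adjusted p = 1.30e-07), and *IRF9* was at -0.92 and *IRF1* at 0.38, both called. The calls of *STAT2* and *IRF2* turned on replicate 2 of the combination. They were not called with it (-0.37, adjusted p = 0.0530, and -0.18, adjusted p = 0.0880) and were called lower without it (-0.74, adjusted p = 4.17e-08, and -0.29, adjusted p = 0.00287), which left 1 member higher and 5 lower. Both were called as well without mtDNA replicate 2 (-0.46, adjusted p = 0.0277, and -0.25, adjusted p = 0.0259) and on the log2(TPM + 1) scale (-0.49, adjusted p = 0.0241, and -0.24, adjusted p = 0.0268, limma), and *STAT2* with no filter on low counts (-0.36, adjusted p = 5.55e-09). *IRF3* (-0.11) and *STAT3* (-0.02) did not pass, and *STAT3* turned to 0.00 with DESeq2 or its size factors and to 0.01 on the centred log2(TPM + 1) scale.

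Of the ISGF3 targets, 14 of 16 were lower in the combination than with mtDNA alone (median -0.96), where 29.9% of all genes were called lower and 27.4% higher. *IFI44L* (-2.61), *CMPK2* (-2.58), *RSAD2* (-2.40) and *IFIT2* (-1.95) came first, and 16 of 16 were lower without replicate 2 of the combination (median -1.92). Their summed level in that library was 6338 TPM, against 1850 and 1907 TPM in its fellows and 6345 to 8966 TPM with mtDNA alone. Of 16 IRF1 targets 8 were lower, with *GBP4* (-1.63) and *PSMB10* (-0.72) first, and 12 without that library. *GBP2* (1.38), the class II activator *CIITA* (1.27) and *ERAP1* (0.19) were higher, and without it 2 of the list were. Sensors gave 5 higher, with *TRAF3* (0.93) first, and 5 lower, with *TLR3* (-3.00), *MYD88* (-1.44) and *STING1* (-1.19) first (median -0.32), and 5 higher and 7 lower without that library (median -0.77).

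The test of whether acetate changes the response to mtDNA is the interaction, here the log2 change from acetate to the combination minus the one from Sen (IR) + CCCP to mtDNA. By edgeR's test 0 of 8 members passed it at an adjusted p under 0.05, where 0.659% of all genes were called, 0.0765% positive and 0.583% negative. DESeq2 called 0 as well, and 3 members had an unadjusted p under 0.05 in edgeR, namely *IRF1* (-0.46, adjusted p = 0.187), *IRF2* (-0.40, adjusted p = 0.190) and *STAT2* (-0.53, adjusted p = 0.362). Over all genes, 1938 of 16994 had an unadjusted p under 0.05 in that test. With no filter on low counts the 3 members were called, where 1.1% of all genes were. Without replicate 2 of the combination 4 were called, all negative, *STAT2* (-0.91, adjusted p = 5.98e-06), *IRF1* (-0.63, adjusted p = 0.00105), *IRF2* (-0.52, adjusted p = 0.00481) and *IRF7* (-1.40, adjusted p = 0.0136), and 2.3% of all genes passed. *IRF7* was at -0.84 (SE 0.529, adjusted p = 0.585) with that library. Of the ISGF3 targets 1 was called with it, *IFI6* (-2.55), and 12 of 16 without it, all negative.

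Set against Sen (IR), the cells that still had their mitochondria, some members returned past their level and others did not. With mtDNA, 4 members were higher than in Sen (IR) and 2 lower, where 67.5% of genes were called, 35% higher and 32.5% lower. *IRF7* was 7.57-fold higher (2.92, adjusted p = 5.08e-09), *IRF2* 1.77-fold (0.82, adjusted p = 4.86e-08), *STAT2* 1.61-fold (0.69, adjusted p = 6.78e-04) and *IRF1* 1.25-fold (0.32, adjusted p = 0.00979), the last losing its call without Sen (IR) replicate 3 (0.23, adjusted p = 0.0682) or mtDNA replicate 1 (0.25, adjusted p = 0.0558). *STAT6* was lower (-0.55, adjusted p = 5.01e-08), as was *STAT3* (-0.20, adjusted p = 0.00251), which turned to 0.15 on the uncentred log2(TPM + 1) scale, where the median of all genes moved by 0.29. *IRF9* (0.16, SE 0.162) and *IRF3* (0.00, SE 0.0729) did not pass there, and were called on the uncentred scale (0.44, adjusted p = 0.0100, and 0.36, adjusted p = 1.76e-04, limma).

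With acetate, 5 members were lower than in Sen (IR) and 2 higher, where 65.9% of genes were called, 33.2% higher and 32.7% lower. *IRF1* was 1.40-fold higher (0.49, adjusted p = 2.85e-04), while *IRF9* (-1.78), *IRF7* (-1.42), *STAT6* (-0.84), *STAT2* (-0.66) and *STAT3* (-0.42) were lower, of which *STAT2* and *STAT3* lost their calls on the uncentred log2(TPM + 1) scale (-0.33, adjusted p = 0.0980, and -0.09, adjusted p = 0.130, limma). *IRF3* was called higher (0.20, adjusted p = 0.0191) and was not without Sen (IR) replicate 3 (0.13, adjusted p = 0.122). *IRF2* was not called (0.19, adjusted p = 0.0787), and was without Sen (IR) replicate 2 (0.24, adjusted p = 0.0479), with only the groups compared (0.19, adjusted p = 0.0306), with no filter on low counts (0.22, adjusted p = 0.0191) and on the uncentred scale (0.51, adjusted p = 6.19e-05, limma).

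In the combination, 3 members were higher than in Sen (IR) and 3 lower, where 66.9% of genes were called, 32.2% higher and 34.7% lower. *IRF7* was 4.44-fold higher (2.15, adjusted p = 9.02e-07), *IRF1* 1.81-fold (0.85, adjusted p = 2.25e-07) and *IRF2* 1.56-fold (0.64, adjusted p = 2.06e-06), with log2 fold changes of 1.62, 0.72 and 0.55 without replicate 2 of the combination, all called. *STAT6* was lower (-0.87, adjusted p = 3.04e-11), as was *STAT3* (-0.23, adjusted p = 9.54e-04), which turned to 0.07 on the uncentred log2(TPM + 1) scale. *IRF9* was called lower (-0.49, adjusted p = 0.0146), a call lost without replicate 1 (-0.28, adjusted p = 0.174) or 3 (-0.39, adjusted p = 0.0810) of the combination, with only the groups compared (-0.47, adjusted p = 0.0707) and on that scale (-0.17, adjusted p = 0.297, limma), and it was at -0.74 (adjusted p = 2.02e-04) without replicate 2. *STAT2* was not called (0.32, adjusted p = 0.0850), stood at -0.03 without replicate 2 of the combination, and was called higher without its replicate 1 (0.54, adjusted p = 0.00256) or 3 (0.47, adjusted p = 0.0166), with no filter on low counts (0.34, adjusted p = 6.37e-08) and on that scale (0.54, adjusted p = 0.0114, limma). *IRF3* (-0.10) did not pass, turned to 0.20 on that scale and was called lower without Sen (IR) replicate 3 (-0.17, adjusted p = 0.0409).

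Genes whose levels ran most like those of each member over the 18 libraries were found by Pearson's r of log2 CPM, as a description of libraries that share treatments. For *IRF7* they were *SAMD9* (0.99), an antiviral factor, *RIGI* (named DDX58 in the files, 0.98) and *PLSCR1* (0.98), and for *STAT2* they were *NLRC5* (0.98), *TRIM14* (0.98) and *PARP10* (0.97). *IRF9* ran closest to *IFITM3* (0.97), which blocks viral entry, *GBP3* (0.97) and *APOL2* (0.96), and *IRF2* to *NUDCD1*, *GTPBP1* and *PPM1K* (each 0.97). The nearest to *IRF1* were *TCIM* (0.95), *LINC01239* (0.94) and *ME2* (0.94), to *STAT6* *TMBIM4* (0.98), *ADAM12* and *TXNIP*, and to *STAT3* *RRBP1* (0.95), *UBE2Z* and *SLC43A3*. *IRF3* had the loosest neighbours, *PPT2-EGFL8* (0.85), *CLK1* (0.83) and *SS18L1* (0.82). Among the members, *IRF7* with *STAT2* (0.90), *IRF2* with *IRF7* (0.89) and *IRF9* with *STAT2* (0.87) ran together most closely, and *IRF3* with *IRF9* (-0.70) ran most against each other.

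Of the relatives outside the 9, *STAT4*, *STAT5A* and *STAT5B* were also tested. *STAT4*, known from lymphocytes, fell with CCCP (-1.48, adjusted p = 0.00230) and rose 3.07-fold with acetate over Sen (IR) + CCCP (1.62, SE 0.381, adjusted p = 9.72e-04), and did not pass with mtDNA (0.74, adjusted p = 0.269), on 637 counts over 18 libraries. *STAT5B* fell in Sen (IR) over Prol (-0.72, adjusted p = 7.46e-11) and rose with acetate (0.32, adjusted p = 9.85e-06). *STAT5A* fell with acetate (-0.49, adjusted p = 0.00676) and rose with mtDNA (0.44, adjusted p = 0.0355). *IRF4* and *IRF8* reached at most 16 and 2 counts in a library and were not tested.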

How the data were processed

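RNA-seq of polyA RNA from 18 libraries was analysed, 3 in each of 6 groups taken from the labels. Per the submitters' processing notes and the study's methods, reads were trimmed with Trimmomatic 0.36, aligned to GRCh38 with STAR 2.5.2b and counted over exons, unique reads alone, with featureCounts (Subread 1.5.2), with strand taken into account for libraries that kept it. It is not said whether these libraries did. The authors deposited raw counts per gene, along with a deposited table of TPM, which divide by gene length and by all transcripts of a library, the mitochondrial ones included. No column was left without a sample (0).

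The counts were tested with edgeR 4.0.16 (R 4.3.3), as 1 quasi-likelihood model of 6 group means with TMM scaling and the default filter on low counts by group, which left 16994 genes. The common biological coefficient of variation was 0.0644. There were 12 contrasts, with p-values adjusted by Benjamini-Hochberg over all genes and a threshold of 0.05. Levels between groups are TMM-scaled CPM, and TPM were compared within libraries. Depth was 24624886 to 46224280 counts on genes, and counting intervals cover counting error only. Fold changes against a group at 3 counts or fewer per library are bounds.

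The members and gene lists were chosen with earlier results of these data known. Named genes are the 9 members, at most 4 genes of each list and comparison with the largest called change, relatives with a count, overlapping neighbours, and the 3 genes of highest r for each member. *IL15*, *ERAP1*, *PSMB10*, *IFI35*, *SOCS3*, *MAVS*, *TICAM1*, *MYD88*, *STING1*, *CGAS*, *TRAF3*, *TBK1*, *PTPN1* and *IKBKE* were in places named beyond that rule, after their values were seen. Promoter sequence is from RefSeq. Same-numbered replicates did not deviate together (r -0.0748 to 0.0734 over 45 pairs of libraries), so samples were not paired. Alternatives were DESeq2 1.42.0 and its size factors, other filters, removal of genes encoded by mtDNA, a fit to only the groups compared, the replicate block, each library left out, and, chosen after seeing the data, limma 3.58.1 on log2(TPM + 1), uncentred and centred, and list counts without the libraries that stood apart. The procedure was tested on simulated data. Figures were drawn with matplotlib 3.10.9.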

Additional observations from a re-analysis of the deposited data

How the results depend on the processing

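The counts of members called moved by over 1.5 times for 2 comparisons. Members called for the interaction numbered 0 to 4 with each library left out in turn. They numbered 3 with no filter on low counts, where 1.1% of all genes were called. Those called with acetate over Sen (IR) + CCCP numbered 5 with only the groups compared. That setting called 65% of all genes, against 57.1% in the main fit. With a library left out, those called in the combination numbered 3 to 6 over mtDNA and 5 to 7 over acetate, against 4 and 7 with all. Over all genes, the interaction calls numbered 112 of 16994, against 413 of 37483 with no filter, 264 with DESeq2 and 55 to 403 with a library left out. Those of the combination over acetate numbered 2136, against 2634 with DESeq2 and 1241 and 1296 without acetate replicate 2 or 3. Of 96 values of single members, 96 kept direction and side of the threshold with mtDNA-encoded genes left out, 95 with at least 10 counts in every library, 93 with DESeq2's size factors, 92 with DESeq2, 91 on the centred log2(TPM + 1) scale, 87 with no filter on low counts, 84 with only the groups compared and 66 on the uncentred scale, and 571 of 624 did so with a library left out. With the replicate number as a block 95 of 96 did, and *STAT2* in the combination over mtDNA passed (-0.39, adjusted p = 0.0452, edgeR); the numbers are not shown to pair the samples. The cause of these changes was not tested.

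Outside the uncentred log2(TPM + 1) scale, reversals were mostly of values near 0. *STAT3* in the combination over mtDNA was 0.000936 with DESeq2's size factors, 0.00140 with DESeq2 and 0.0149 centred. *IRF3* in mtDNA over Sen (IR) was -0.0120 with size factors, -0.0193 with at least 10 counts, -0.0172 with only the groups compared, -0.00720 with DESeq2 and -0.0213 centred. *IRF3* with acetate was -0.000352 with only the groups compared, and *STAT6* with mtDNA -0.00108 centred. On the uncentred log2(TPM + 1) scale, values over Sen (IR) were 0.387 for *IRF2* and 0.103 for *STAT3* in Sen (IR) + CCCP, 0.151 for *STAT3* with mtDNA, and 0.196 for *IRF3* and 0.0668 for *STAT3* in the combination. Sen (IR) + CCCP over Prol gave 0.389 for *IRF1*, 0.369 for *IRF2*, 0.310 for *STAT3* and 0.176 for *STAT6*. Some of these had been called in the main test with the opposite sign. Over Sen (IR) they were *STAT3* in Sen (IR) + CCCP (-0.32), with mtDNA (-0.20) and in the combination (-0.23). Over Prol they were *STAT3* (-0.20) and *STAT6* (-0.33) in Sen (IR) + CCCP. Over Sen (IR) + CCCP, acetate gave -0.0803 for *IRF3* and -0.0213 for *IRF7*, mtDNA -0.0540 for *STAT6* and the combination -0.0360 for *STAT3*. With libraries left out in turn, values that changed sign ranged as follows. In Sen (IR) over Prol *IRF3* ran from -0.00573 to 0.158 and *IRF7* from -0.170 to 0.203. Over Sen (IR), *IRF2* in Sen (IR) + CCCP ran from -0.0855 to 0.0116, *IRF3* with mtDNA from -0.0683 to 0.0960 and *STAT2* in the combination from -0.0349 to 0.537. Over Sen (IR) + CCCP, *IRF3* with acetate ran from -0.0118 to 0.0950, *IRF7* with acetate from -0.00219 to 0.255 and *STAT6* with mtDNA from -0.0196 to 0.0735. In the combination, *STAT6* over acetate ran from -0.121 to 0.00799 and *STAT3* over mtDNA from -0.0580 to 0.0352.

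Depth limits *IRF5*, *IRF7* outside the mtDNA groups and *IRF9*. Groups of 3 libraries leave exact tests of single values at p = 0.1 or more, and no transfection control is given.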
